A study of Mus musculus with 10 samples.

Results

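The 48 genes described here act in DNA replication, in mitosis and in the choice between dividing and resting. They were taken by symbol from a list that was chosen with earlier results of these data known. All 48 were measured, of 23152 genes in the table. They fall into 23 S phase genes (Mcm2 to Mcm7, Mcm10, Gins1, Gins2, Cdc6, Cdt1, Cdc45, Rrm1, Rrm2, Tyms, Pcna, Pola1, Prim1, Rfc3, Rfc4, Ung, Ccne1 and Ccne2) and 17 mitotic genes (Ccna2, Ccnb2, Cdk1, Cdc20, Plk1, Aurka, Aurkb, Bub1, Bub1b, Birc5, Cenpe, Cenpf, Kif11, Kif20a, Kif23, Top2a and Mki67). The other 8 are G1 regulators (Ccnd1, Ccnd2, Ccnd3, Cdk4, Cdk6, Cdkn1a, Cdkn1b and Cdkn2c).

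RNA of sorted bone marrow progenitors from adult C57BL/6 mice was hybridised to 10 Affymetrix arrays. Common lymphoid progenitors (CLPs) were sorted as lineage-negative, CD127+ and Flt3-high, with cKit and Sca-1 both low, and split into Ly6D+ CLPs (n = 2) and Ly6D- CLPs (n = 2). Lymphoid-primed multipotent progenitors (LMPPs), also lineage-negative, were high for Flt3, cKit and Sca-1 and split into CD127+ LMPPs (n = 3) and CD127- LMPPs (n = 3). No group carried a genetic change or a treatment, and the labels give no Ly6D gate for LMPPs. Nothing in the labels says whether arrays of a group came from separate mice, so each p-value is read against the spread of these samples alone, which may be technical. The study's design asked how the LMPP subsets differ from each other and from CLPs.

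Before a cell copies its DNA, origins are licensed when CDC6 and CDT1 load the MCM helicase, which CDC45 and the GINS complex later make active. The clamp loader RFC puts the PCNA ring on the DNA, and ribonucleotide reductase and thymidylate synthase supply nucleotides. Entry into S phase is driven by cyclin D with CDK4 or CDK6, whose activity inhibitors such as p21, p27 and p18 restrain, and by cyclin E. In mitosis CDK1 with cyclin B, the kinases PLK1 and Aurora, and CDC20, an activator of the anaphase-promoting complex, carry the cell through chromosome segregation. Many S phase genes are known targets of E2F factors, and many mitotic genes are known to carry a CHR element and CCAAT boxes close to their start.

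Promoter windows of 250 bases before to 50 bases after the start (RefSeq, GRCm38.p6) were given for 39 of the 48 genes. The motifs were searched as exact letters on both strands. An E2F motif (TTTGGCGC, TTTCCCGC, TTTGCCGC or TTTCGCGC, which can overlap one another on opposite strands) was found for 8 of 19 S phase genes (42.1%), 1 of 14 mitotic genes (7.14%) and 0 of 6 G1 genes, against 2.6% of all 27025 genes in the table. The CHR letters TTTGAA were found for 2 of 19 S phase genes (10.5%), 11 of 14 mitotic genes (78.6%) and 0 of 6 G1 genes, against 20.2% of all genes. CCAAT was found for 13 of 19 S phase genes (68.4%), 13 of 14 mitotic genes (92.9%) and 3 of 6 G1 genes (50%), against 41.1% of all genes. A match describes the window and does not show that a factor binds there.

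The 150 bases before the start are shown for 2 S phase and 2 mitotic genes. In each pair the first gene passed a test below and the second did not, although both hold an E2F motif in the S phase pair and CHR letters in the mitotic pair. Capitals mark E2F motifs and CCAAT in Rfc3 and Mcm6, and CHR and CCAAT in Cdc20 and Mki67, on either strand. All 4 are written 5′ to 3′ along the gene, and all 4 genes lie on the minus strand. Rfc3 is from chr5:151651209-151651358, Mcm6 from chr1:128359706-128359855, Cdc20 from chr4:118437344-118437493 and Mki67 from chr7:135716380-135716529.
Rfc3: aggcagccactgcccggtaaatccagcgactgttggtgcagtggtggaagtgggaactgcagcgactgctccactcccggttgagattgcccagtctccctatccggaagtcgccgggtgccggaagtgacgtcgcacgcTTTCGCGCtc
Mcm6: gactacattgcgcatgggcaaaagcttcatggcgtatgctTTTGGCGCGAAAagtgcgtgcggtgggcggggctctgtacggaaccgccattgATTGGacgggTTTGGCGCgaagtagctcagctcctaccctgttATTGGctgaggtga
Cdc20: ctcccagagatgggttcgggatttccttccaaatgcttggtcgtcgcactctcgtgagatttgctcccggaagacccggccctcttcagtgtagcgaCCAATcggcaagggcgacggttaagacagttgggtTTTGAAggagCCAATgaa
Mki67: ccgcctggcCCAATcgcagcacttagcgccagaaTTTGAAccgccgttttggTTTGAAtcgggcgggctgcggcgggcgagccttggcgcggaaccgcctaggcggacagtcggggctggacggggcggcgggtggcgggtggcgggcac

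Arrays of one group correlated at 0.972 to 0.986 over all genes. Il7r, Ly6d and Kit followed the labels. Il7r, which encodes CD127, was 9.05 to 9.66 in the 3 CD127+ groups and 3.84 to 4.70 in CD127- LMPPs, and Ly6d was 11.31 and 11.35 in Ly6D+ CLPs against 5.59 and 6.17 in Ly6D- CLPs. Ly6d was also 8.53 to 8.81 in CD127+ LMPPs, against 4.61 to 4.91 in CD127- LMPPs. Kit was 6.99 to 7.73 in the cKit-low CLPs and 8.27 to 8.74 in the cKit-high LMPPs, and Flt3, for which all groups were sorted high, was 9.73 to 10.29. Ly6a, which encodes Sca-1, did not follow its gate: it was 5.83 and 6.77 in Ly6D+ CLPs and 5.98 and 5.04 in Ly6D- CLPs, both sorted low, against 7.08, 6.41 and 7.58 in CD127+ LMPPs and 5.63, 5.99 and 5.82 in CD127- LMPPs, both sorted high. Markers of other cells moved with the groups. The summed linear signal of 10 granulocyte markers was 2698 to 4027 in CD127+ LMPPs and at most 1021 on any other array, and that of 7 erythroid markers was 631 to 1099 in CD127+ LMPPs and at most 353 elsewhere. The sum of 9 monocyte and macrophage markers was 969 to 1427 in CD127- LMPPs and at most 487 elsewhere, and the sum of 8 pro-B markers was 1354 to 1573 in Ly6D+ CLPs and at most 720 elsewhere. A low-signal limit of 4.43 on the log2 scale was taken as the 95th percentile of 1419 sensory receptor genes, which these cells are not known to use. Of the 10 granulocyte markers, 6 were above it in Ly6D+ CLPs, 5 in Ly6D- CLPs, 9 in CD127+ LMPPs and 5 in CD127- LMPPs. Of the 7 erythroid markers, 3 were above it in each CLP group, 7 in CD127+ LMPPs and 4 in CD127- LMPPs. Of the 9 monocyte and macrophage markers, 3 were above it in Ly6D+ CLPs, 5 in Ly6D- CLPs, 6 in CD127+ LMPPs and 5 in CD127- LMPPs. Of the 8 pro-B markers, 8 were above it in Ly6D+ CLPs, 4 in Ly6D- CLPs, 4 in CD127+ LMPPs and 3 in CD127- LMPPs. Signals of T cell, plasma cell and stromal markers were 99 to 182, 194 to 260 and 311 to 453 over all arrays. The T cell sum was 168 to 171 in Ly6D+ CLPs, 144 to 182 in Ly6D- CLPs, 126 to 153 in CD127+ LMPPs and 99 to 119 in CD127- LMPPs. Cd3d, Cd3e, Cd3g, Cd4 and Cd8a were below the limit in every group. Cd5, the other T cell marker measured, was above it in every group. Its means were 6.64 in Ly6D+ CLPs, 6.62 in Ly6D- CLPs, 5.97 in CD127+ LMPPs and 5.31 in CD127- LMPPs. The part of all these markers in the results below was not tested.

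All 48 genes had a mean above the low-signal limit in each of the 4 groups. Every value below is a log2 signal averaged over the 5 (Tyms) to 44 (Cenpe) probe sets of a gene, every difference is one of log2 signals, and levels of different genes are not compared. In bulk RNA, fewer dividing cells and less of a transcript in each dividing cell cannot be told apart. Averaged over the 23 S phase genes, each array's level was 7.50 and 7.59 in Ly6D+ CLPs, 7.50 and 7.49 in Ly6D- CLPs, 7.53, 7.49 and 7.60 in CD127+ LMPPs, and 7.85, 7.85 and 7.67 in CD127- LMPPs. The 3 CD127- LMPP arrays were thus the highest, and the other 7 arrays lay within a narrow band. The 17 mitotic genes averaged 7.78 and 7.77 in Ly6D+ CLPs, 7.74 and 7.74 in Ly6D- CLPs, 7.71, 7.80 and 7.97 in CD127+ LMPPs, and 7.91, 7.90 and 7.89 in CD127- LMPPs. Here CD127+ LMPPs spread across the range of all other arrays. The 8 G1 genes averaged 7.97 and 8.03 in Ly6D+ CLPs, 7.99 and 8.11 in Ly6D- CLPs, 8.19, 8.12 and 7.98 in CD127+ LMPPs, and 8.33, 8.34 and 8.22 in CD127- LMPPs.

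**Figure D1:**
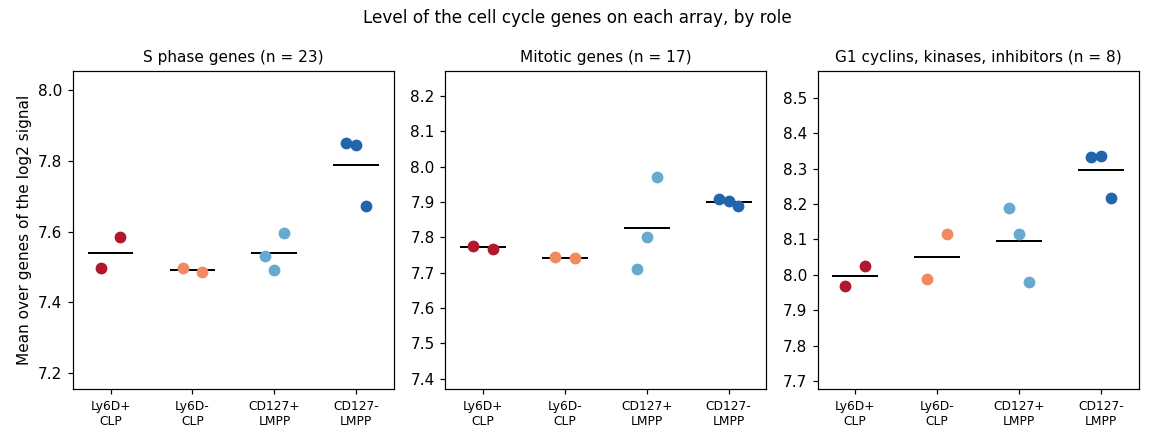
Mean log2 signal of the 23 S phase, 17 mitotic and 8 G1 genes on each array (points, y axis, not starting at 0), by sorted group (x axis). For S phase genes the 3 CD127- LMPP arrays sit at 7.67 to 7.85 and the other 7 arrays at 7.49 to 7.60.

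CLPs, taken as the equal mean of the 2 Ly6D groups, were set against CD127- LMPPs. CLPs were lower in some S phase genes, in 3 of 17 mitotic genes and in cyclin D1, and higher in the inhibitor p21. Of the 48 genes, 12 passed limma's moderated test at an adjusted p of 0.05, 11 of them lower in CLPs and 1 higher. Over all genes 13.4% passed, 8.36% lower and 5.08% higher. On each array 10625 to 11199 of the 23152 genes were below the low-signal limit, while all 48 genes had group means above it. The shares over all genes, here and below, include those dim genes. How the 48 genes compare with genes of like signal was not tested. By role, 5 of 23 S phase genes, 3 of 17 mitotic genes and 3 of 8 G1 genes were lower, and 1 G1 gene was higher. Of the mitotic genes, Cdc20 alone passed whichever array was left out, and it did not pass with the median probe set. The median difference was -0.25 for S phase genes, -0.05 for mitotic genes and -0.36 for G1 genes, against 0.02 over all genes. All 4 CLP arrays lay below all 3 CD127- LMPP arrays for 24 of the 48 genes, against 13.5% of all genes, and these were 12 S phase, 7 mitotic and 5 G1 genes. The labels do not say whether CLP and LMPP arrays were run together, and if they were not, a batch cannot be told apart from any difference between CLPs and LMPPs given here.

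Gins1 and Gins2 encode subunits of the GINS complex, which turns the loaded MCM ring into an active helicase. Gins2 was 7.52 and 7.73 in Ly6D+ CLPs, 7.58 and 7.75 in Ly6D- CLPs, and 8.21, 8.32 and 8.09 in CD127- LMPPs. The groups did not overlap, and the CLP mean was lower by a log2 difference of -0.56 (SE 0.12, limma adjusted p = 0.0115). Gins1 was 6.37 and 6.52 in Ly6D+ CLPs, 6.46 and 6.60 in Ly6D- CLPs, and 7.03, 7.27 and 6.85 in CD127- LMPPs, a difference of -0.56 (SE 0.14, limma adjusted p = 0.0257). The brightest of its 12 probe sets went the other way, at 0.11.

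The MCM genes themselves did not pass. Mcm7 came closest, with 7.96 and 8.03 in Ly6D+ CLPs, 8.11 and 7.95 in Ly6D- CLPs, and 8.47, 8.46 and 8.27 in CD127- LMPPs (-0.39, SE 0.12, limma adjusted p = 0.0608). Mcm4 was 9.17 and 9.11 in Ly6D+ CLPs, 9.01 and 8.94 in Ly6D- CLPs, and 9.45, 9.30 and 9.35 in CD127- LMPPs, again without overlap (limma adjusted p = 0.107). Mcm6, whose promoter is shown above, was 9.78 and 9.71 in Ly6D+ CLPs, 9.70 and 9.69 in Ly6D- CLPs, and 9.91, 9.90 and 9.82 in CD127- LMPPs (-0.16, 95% interval -0.41 to 0.09). Its arrays were separated by a small gap. Mcm5 gave the smallest difference of Mcm2 to Mcm7, -0.03, with a 95% interval of -0.33 to 0.26. Of the licensing factors, Cdt1 differed by -0.37 (-0.75 to 0.004) and Cdc6 by 0.11 (-0.22 to 0.45), and both overlapped.

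Rfc3 and Rfc4 encode small subunits of the clamp loader. Rfc3, whose promoter is shown above, was 6.47 and 6.66 in Ly6D+ CLPs, 6.67 and 6.50 in Ly6D- CLPs, and 7.19, 7.17 and 7.07 in CD127- LMPPs. It was lower in CLPs by a difference of -0.57 (SE 0.12, limma adjusted p = 0.0088), and no CLP array reached a CD127- LMPP array. Rfc4 was 6.41 and 6.52 in Ly6D+ CLPs, 6.66 and 6.58 in Ly6D- CLPs, and 7.24, 6.98 and 6.90 in CD127- LMPPs (-0.50, SE 0.14, limma adjusted p = 0.0330). Pcna, the clamp they load, was 10.08 and 10.10 in Ly6D+ CLPs, 10.11 and 9.998 in Ly6D- CLPs, and 9.96, 9.99 and 10.15 in CD127- LMPPs. Its groups overlapped, and the difference was 0.04 with a 95% interval of -0.25 to 0.32.

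Rrm2 encodes the regulatory subunit of ribonucleotide reductase, whose level is known to follow S phase. It was 6.55 and 6.57 in Ly6D+ CLPs, 6.47 and 6.22 in Ly6D- CLPs, and 7.33, 7.16 and 7.04 in CD127- LMPPs. The CLP level was 1.65-fold lower (log2 difference -0.72, SE 0.13, limma adjusted p = 0.0040), without overlap. Rrm1, the gene of the large subunit, was 8.90 and 8.81 in Ly6D+ CLPs, 8.80 and 8.67 in Ly6D- CLPs, and 9.18, 8.84 and 9.11 in CD127- LMPPs, and its groups overlapped.

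Ung, the gene of a uracil-DNA glycosylase that acts at the fork, was 4.95 and 5.36 in Ly6D+ CLPs, 5.42 and 5.41 in Ly6D- CLPs, and 5.69, 5.72 and 5.88 in CD127- LMPPs. The groups did not overlap, but the difference of -0.48 did not pass (SE 0.16, limma adjusted p = 0.0732). Prim1, the gene of the small primase subunit, differed by 0.03 (95% interval -0.27 to 0.32), and its partner Pola1 by -0.20 (-0.47 to 0.07). The cyclin E genes Ccne1 and Ccne2 differed by -0.22 (-0.64 to 0.20) and -0.11 (-0.36 to 0.15).

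Among the mitotic genes, Cdc20 gave the widest gap. It was 6.57 and 6.46 in Ly6D+ CLPs, 6.20 and 6.67 in Ly6D- CLPs, and 7.27, 7.0 and 7.29 in CD127- LMPPs, which made CLPs 1.64-fold lower (log2 difference -0.71, SE 0.14, limma adjusted p = 0.0079). Plk1, a kinase of mitotic entry and spindle assembly, was 6.99 and 7.01 in Ly6D+ CLPs, 7.39 and 7.26 in Ly6D- CLPs, and 7.78, 7.68 and 7.59 in CD127- LMPPs. The Ly6D+ arrays were the lowest and the groups did not overlap (-0.52, SE 0.13, limma adjusted p = 0.0198). Kif20a, a kinesin of cytokinesis, was 6.27 and 6.47 in Ly6D+ CLPs, 6.34 and 6.37 in Ly6D- CLPs, and 6.76, 7.05 and 6.86 in CD127- LMPPs (-0.53, SE 0.15, limma adjusted p = 0.0401). The brightest of its 22 probe sets had the opposite sign, at 0.44.

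Cdk1, the kinase of mitotic entry, was 7.07 and 7.57 in Ly6D+ CLPs, 7.19 and 7.41 in Ly6D- CLPs, and 8.06, 7.81 and 7.77 in CD127- LMPPs. The groups did not overlap, yet the difference of -0.57 did not pass (SE 0.17, limma adjusted p = 0.0533). Cenpf, a kinetochore gene, ran the other way, with 6.95 and 6.97 in Ly6D+ CLPs, 7.12 and 6.85 in Ly6D- CLPs, and 6.55, 6.56 and 6.59 in CD127- LMPPs, and did not pass either (0.41, SE 0.13, limma adjusted p = 0.0658). The Aurora kinase gene Aurkb was 6.90 and 6.94 in Ly6D+ CLPs, 6.60 and 7.15 in Ly6D- CLPs, and 7.26, 7.67 and 7.19 in CD127- LMPPs (-0.47, SE 0.17, limma adjusted p = 0.0997), and its relative Aurka differed by -0.11 (95% interval -0.41 to 0.20). The checkpoint gene Bub1b, the passenger gene Birc5, the kinetochore motor gene Cenpe and the spindle kinesins Kif11 and Kif23 had differences between -0.05 and 0.21, all with overlapping arrays.

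Several of the genes most often read as signs of proliferation gave no difference that passed. Mki67, the gene of the Ki-67 antigen, was 9.48 and 9.54 in Ly6D+ CLPs, 9.41 and 9.33 in Ly6D- CLPs, and 9.25, 9.31 and 9.34 in CD127- LMPPs. The difference between CLPs and CD127- LMPPs was 0.14, with a 95% interval of -0.12 to 0.39. Top2a, which untangles replicated chromosomes, differed by 0.12 (-0.15 to 0.39), and Ccna2, the gene of cyclin A2, by -0.04 (-0.30 to 0.21). Neither the Mki67 nor the Ccna2 groups were separated by a gap. Taken alone, both Ly6D+ CLP arrays were the highest of all arrays for Mki67. The same held for Top2a, at 9.83 and 9.66 in Ly6D+ CLPs against at most 9.62 on any other array, but not for Ccna2. Neither Mki67 nor Top2a passed in Ly6D+ CLPs against any other group.

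The largest difference belonged to Ccnd1, the gene of cyclin D1. It was 5.73 and 5.51 in Ly6D+ CLPs, 6.37 and 6.42 in Ly6D- CLPs, and 7.21, 7.22 and 6.95 in CD127- LMPPs. CLPs were 2.17-fold lower (log2 difference -1.12, SE 0.14, limma adjusted p = 0.00051), and all 7 of its probe sets were lower in CLPs. The other D cyclins did not follow. Ccnd2 differed by -0.07 (95% interval -0.34 to 0.21) and Ccnd3 by 0.03 (-0.27 to 0.33).

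Cdk4, a kinase partner of the D cyclins, was 9.16 and 9.24 in Ly6D+ CLPs, 9.33 and 9.27 in Ly6D- CLPs, and 9.77, 9.82 and 9.65 in CD127- LMPPs (-0.50, SE 0.11, limma adjusted p = 0.0143). Cdkn1a, the gene of the inhibitor p21, was 8.55 and 8.87 in Ly6D+ CLPs, 8.21 and 8.41 in Ly6D- CLPs, and 7.80, 7.63 and 7.66 in CD127- LMPPs. All CLP arrays were above all CD127- LMPP arrays, with a difference of 0.81 (SE 0.15, limma adjusted p = 0.0056). Cdkn2c, the gene of the inhibitor p18, moved against p21, with 6.14 and 6.73 in Ly6D+ CLPs, 6.35 and 6.41 in Ly6D- CLPs, and 7.09, 6.83 and 7.11 in CD127- LMPPs (-0.60, SE 0.15, limma adjusted p = 0.0258). Cdkn1b, the gene of p27, was 7.87 and 7.88 in Ly6D+ CLPs, 7.65 and 7.99 in Ly6D- CLPs, and 8.26, 8.26 and 8.28 in CD127- LMPPs, without overlap but without passing (limma adjusted p = 0.0961).

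**Figure D2:**
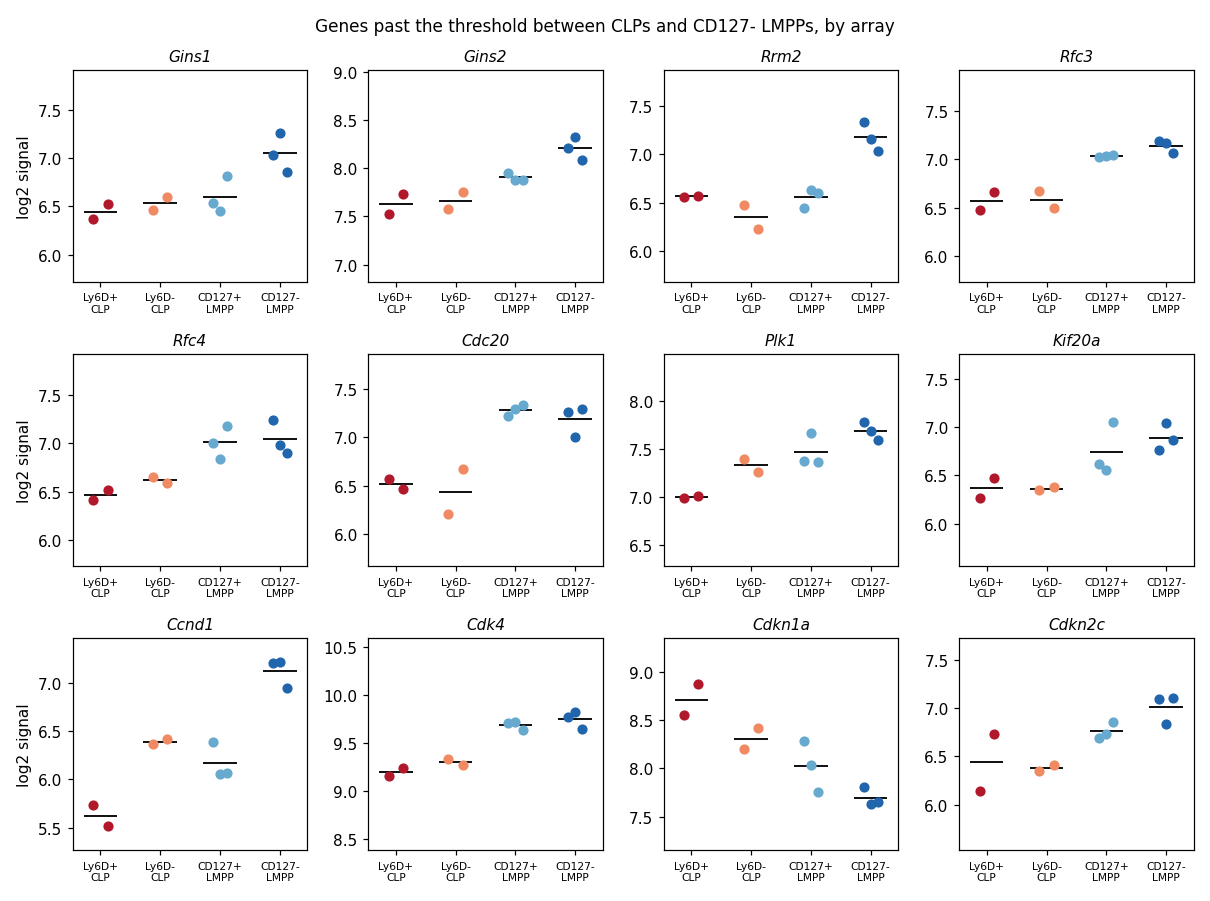
Log2 signal on each array (points) of the 12 genes that passed between CLPs and CD127- LMPPs, 1 panel a gene, by sorted group. Ccnd1 lies at 5.51 to 6.42 on the CLP arrays and at 6.95 to 7.22 on the CD127- LMPP arrays, and Cdkn1a is the 1 gene of the 12 that is higher in CLPs.

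**Figure D3:**
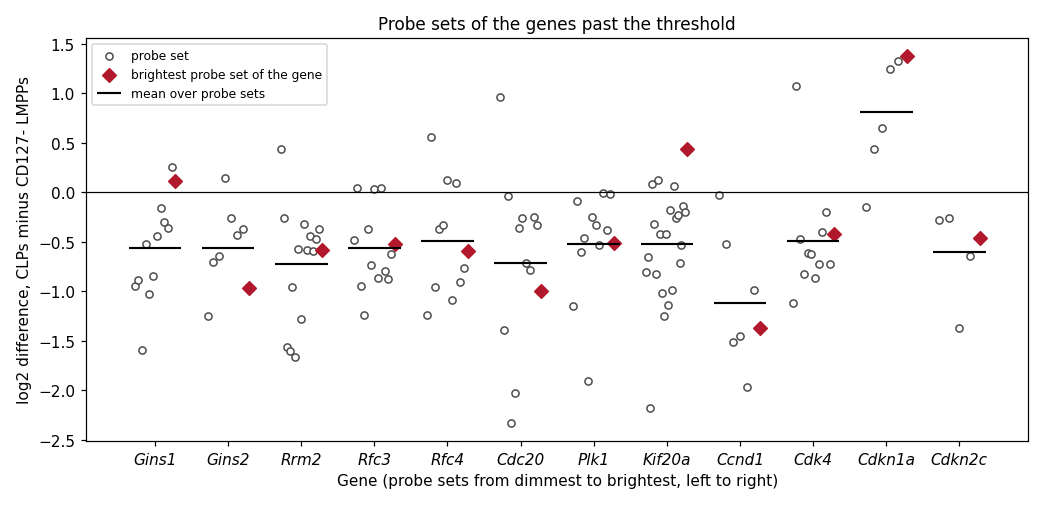
Difference of CLPs minus CD127- LMPPs for each probe set (points, log2, y axis) of the 12 genes that passed (x axis), with a diamond for the brightest probe set and a line for the mean. All probe sets of Plk1 (12), Ccnd1 (7) and Cdkn2c (5) are lower in CLPs. Gins1, Gins2, Rrm2, Rfc3, Rfc4, Cdc20, Kif20a, Cdk4 and Cdkn1a have probe sets on both sides of 0. In Gins1 and Kif20a the brightest probe set has the opposite sign to the mean.

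Ccnd1, Cdkn1a, Cdc20, Rrm2, Rfc3 and Gins2 passed whichever single array was left out. The other 6 calls rested on particular arrays: 6 genes passed in all without CD127- LMPP array 1, 7 without CD127- LMPP array 2 and 7 without Ly6D+ CLP array 1. The highest limma adjusted p reached on leaving out an array was 0.0587 for Cdk4, 0.0855 for Plk1, 0.0968 for Cdkn2c, 0.101 for Gins1, 0.137 for Kif20a and 0.141 for Rfc4. Another summary of each gene, in place of the mean, also ended calls among the first 6. The median probe set stands for the median over a gene's probe sets on each array, and the brightest is 1 probe set. With the median probe set the limma adjusted p was 0.113 for Cdc20, 0.0931 for Rfc3 and 0.834 for Gins2, whose difference was then -0.09. With the brightest probe set it was 0.0707 for Rrm2 and 0.0920 for Rfc3. Ccnd1 and Cdkn1a passed with either.

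Other genes of the same processes were counted from wider lists. Of 40 other replication genes, 9 were lower and 1 higher in CLPs than in CD127- LMPPs. The 4 with the smallest adjusted p were Rfc2 (-0.90), another clamp loader subunit, Rpa3 (-0.98), which binds single-stranded DNA, Pold2 (-0.87), a subunit of DNA polymerase delta, and Rfc5 (-0.63). Of 47 other mitotic genes, 8 were lower and 1 higher, among them Espl1 (-0.66), the gene of separase, and Pttg1 (-0.61), the gene of its inhibitor securin. Of 26 other G1 regulators, 3 were lower and 2 higher, with Btg2, an antiproliferative gene, at 0.94. Differences in this G1 list ran from -0.64 to 0.94. These counts compare with 8.36% of all genes lower and 5.08% higher.

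CD127+ LMPPs were set against CD127- LMPPs to follow the split of LMPPs that the design names. Ccnd1 alone of the 48 genes passed (1 of 48, 2.08%), against 1.47% of all genes passing in either direction and 0.592% lower. It was 6.39, 6.06 and 6.06 in CD127+ LMPPs and 7.21, 7.22 and 6.95 in CD127- LMPPs. No array overlapped, and CD127+ LMPPs were 1.94-fold lower (log2 difference -0.96, SE 0.15, limma adjusted p = 0.0083). The call held without each array in turn, with a highest limma adjusted p of 0.0480, but was lost with the median probe set (-0.99, limma adjusted p = 0.248) and with the brightest (-0.75, limma adjusted p = 0.346).

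All 23 S phase genes had a negative difference between CD127+ and CD127- LMPPs, with a median of -0.25 and a range of -0.62 to -0.02, against a median of -0.01 over all genes. None passed: limma called 0 of 23. At an unadjusted limma p under 0.05, 7 were lower and 0 higher, against 1222 lower and 1349 higher of all 23152 genes. For 11 of the 23 the CD127+ arrays lay wholly below the CD127- arrays, against 9.27% of all genes. With the brightest probe set standing for each gene, 17 of 23 were negative. These genes share arrays, so their common sign is a description and not 23 separate observations.

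Rrm2 came nearest to passing, at 6.44, 6.63 and 6.60 in CD127+ LMPPs against 7.33, 7.16 and 7.04 in CD127- LMPPs (-0.62, SE 0.14, limma adjusted p = 0.0561). Mcm3, a helicase subunit, was 8.54, 8.51 and 8.61 in CD127+ LMPPs against 8.93, 8.84 and 8.73 in CD127- LMPPs (-0.28, limma adjusted p = 0.423). Mcm10, which helps start the helicase, was 6.34, 6.38 and 6.48 in CD127+ LMPPs against 6.83, 6.83 and 6.59 in CD127- LMPPs. Pola1, the catalytic subunit of DNA polymerase alpha, was 8.01, 7.82 and 8.17 in CD127+ LMPPs against 8.35, 8.24 and 8.31 in CD127- LMPPs. In each of these 4 genes every CD127+ array was below every CD127- array.

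Of the 17 mitotic genes, 13 had a negative difference between CD127+ and CD127- LMPPs, with a median of -0.09, and 0 passed limma. At an unadjusted limma p under 0.05, 1222 of all 23152 genes were lower and 1349 higher, while 0 mitotic genes were lower and 1 higher. That gene was Cenpf, at 6.87, 6.84 and 7.18 in CD127+ LMPPs against 6.55, 6.56 and 6.59 in CD127- LMPPs (0.40, limma adjusted p = 0.285). Bub1, a spindle checkpoint kinase, was the 1 mitotic gene whose CD127+ arrays, 7.21, 7.38 and 7.50, all lay below the CD127- arrays, 7.65, 7.65 and 7.66. Mki67 differed by -0.09 (95% interval -0.36 to 0.18) and Top2a by -0.01 (-0.30 to 0.27). Whether S phase genes differed more than mitotic genes was not tested.

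Among the G1 regulators, Cdk6 was 9.31, 9.24 and 9.06 in CD127+ LMPPs against 9.58, 9.58 and 9.42 in CD127- LMPPs, and Cdkn1b was 8.11, 8.02 and 7.58 in CD127+ LMPPs against 8.26, 8.26 and 8.28 in CD127- LMPPs. Neither passed, although in both genes the groups did not overlap. In the wider lists, 36 of 40 other replication genes, 35 of 47 other mitotic genes and 16 of 26 other G1 regulators had a negative difference. Of all 23152 genes, 11778 did. Genes of the wider lists share arrays too, so these counts are a description. Of the wider lists' genes, E2f8, a repressor of E2F targets, was the only one to pass, at -0.64 (limma adjusted p = 0.0439).

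**Figure D4:**
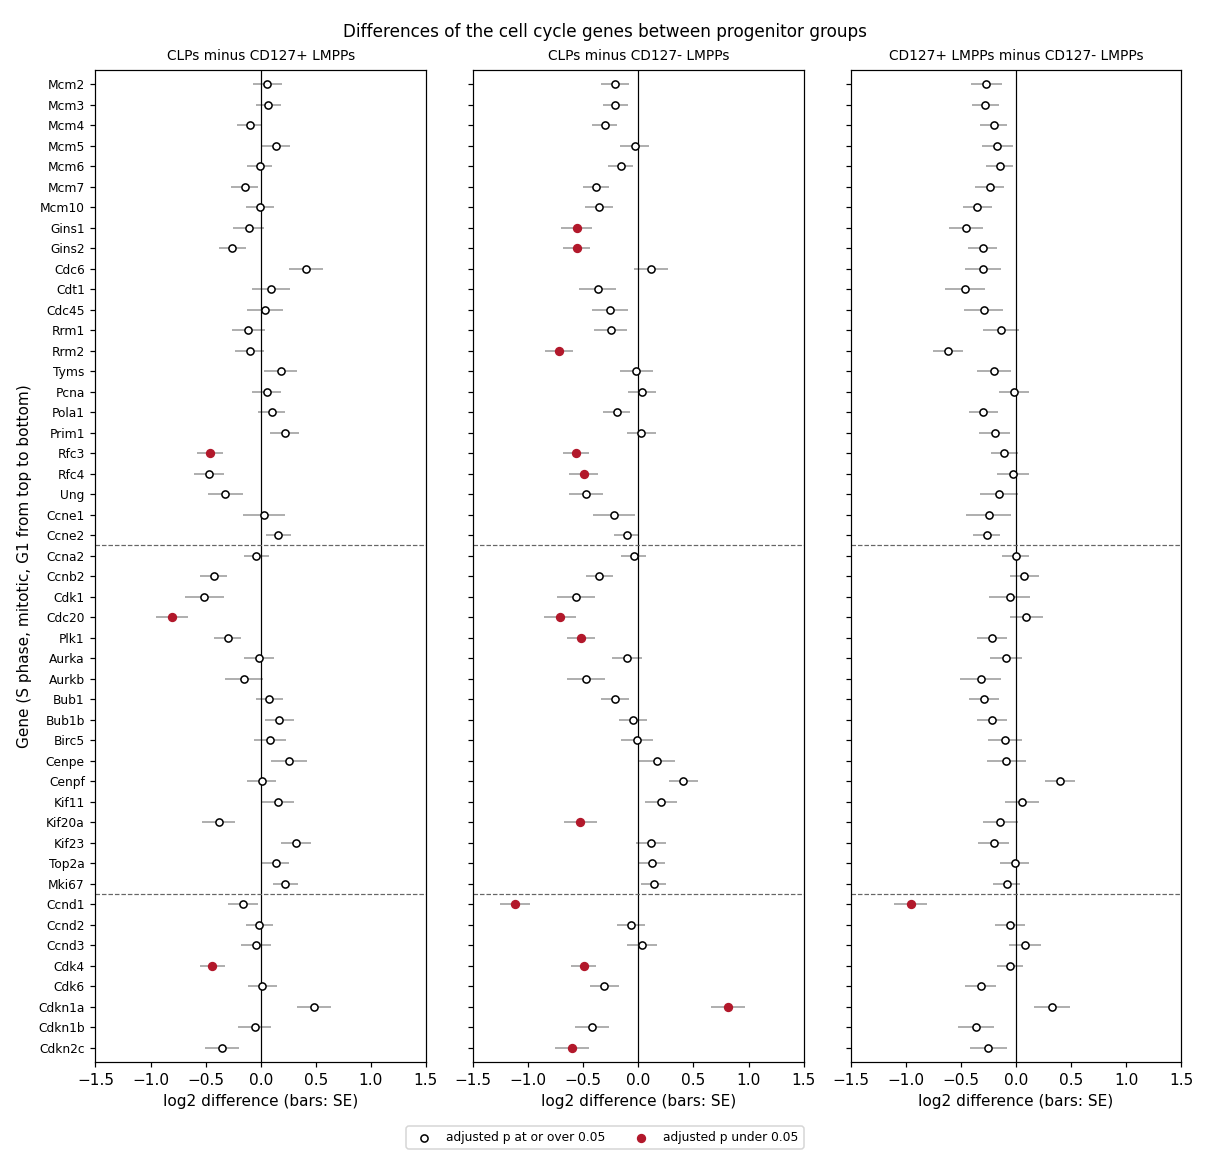
Log2 differences with their SE as bars (x axis) of the 48 genes (rows, by role) for CLPs minus CD127+ LMPPs, CLPs minus CD127- LMPPs and CD127+ LMPPs minus CD127- LMPPs, with filled points for genes that passed. All 23 S phase genes lie left of 0 for CD127+ minus CD127- LMPPs, 1 of the 48 genes, Ccnd1, passing there.

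Against CD127+ LMPPs, CLPs were lower in 3 genes and higher in 0. The 3 of 48 compare with 6.18% of all genes in either direction and 3.94% lower. At an unadjusted limma p under 0.05, 9 of the 48 genes were lower and 3 higher. Of all 23152 genes, 2739 were lower and 2165 higher at that p. Cdc20 was 6.57 and 6.46 in Ly6D+ CLPs, 6.20 and 6.67 in Ly6D- CLPs, and 7.22, 7.29 and 7.33 in CD127+ LMPPs. CLPs were 1.75-fold lower (log2 difference -0.81, SE 0.14, limma adjusted p = 0.0095). The call held without each array in turn and was lost with the median probe set (-0.63, limma adjusted p = 0.128). Rfc3 was 7.03, 7.03 and 7.05 in CD127+ LMPPs, above all 4 CLP arrays (-0.46, SE 0.12, limma adjusted p = 0.0424), and Cdk4 was 9.71, 9.72 and 9.64, likewise above them (-0.44, SE 0.11, limma adjusted p = 0.0442). The Rfc3 and Cdk4 calls were lost on leaving out any one of the 10 arrays, with limma adjusted p of up to 0.128 and 0.137. That left 1 call, Cdc20, each time.

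The S phase genes had a median difference of 0.03 between CLPs and CD127+ LMPPs, with 12 positive and 11 negative, and the mitotic genes 0.01. Rrm2 differed by -0.10 (95% interval -0.38 to 0.18) and Ccnd1 by -0.16 (-0.46 to 0.14), both with overlapping arrays. Ccnb2, the gene of cyclin B2, was 8.76 and 8.63 in Ly6D+ CLPs, 9.01 and 9.02 in Ly6D- CLPs, and 9.08, 9.32 and 9.45 in CD127+ LMPPs, without overlap and without passing (-0.43, limma adjusted p = 0.0686). Comparisons with CLPs share the same 4 CLP arrays, and those with CD127- LMPPs the same 3, so they are not separate evidence. Of the wider lists, Rfc2 (-0.70), Rpa3 (-0.75), Pold2 (-0.67) and Dut (-0.49), a dUTPase, were lower in CLPs than in CD127+ LMPPs, as were Pttg1 (-0.67) and E2f6 (-0.65), while E2f8 (0.49) and Ccng2 (0.43) were higher.

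Ly6D+ and Ly6D- CLPs did not differ in any of the 48 genes by limma's adjusted p (0 of 48, against 0.0993% of all genes). An unadjusted limma p under 0.05 was found for 6 of the 48, 4 higher and 2 lower in Ly6D+ CLPs. Of all 23152 genes, 1080 were higher and 1027 lower at that p. Ccnd1 was 5.73 and 5.51 in Ly6D+ CLPs and 6.37 and 6.42 in Ly6D- CLPs (-0.77, SE 0.18, limma adjusted p = 0.196). Tyms, the gene of thymidylate synthase, was 7.23 and 7.76 in Ly6D+ CLPs and 6.90 and 6.85 in Ly6D- CLPs (0.63, SE 0.19, limma adjusted p = 0.351). Cdc6, the licensing factor, was 7.41 and 7.30 in Ly6D+ CLPs and 6.94 and 6.66 in Ly6D- CLPs (0.55, SE 0.20, limma adjusted p = 0.446). Ccne2, the gene of cyclin E2, was 7.02 and 6.97 in Ly6D+ CLPs and 6.61 and 6.51 in Ly6D- CLPs, and Birc5, the gene of survivin, was 7.84 and 7.91 in Ly6D+ CLPs and 7.48 and 7.35 in Ly6D- CLPs. In these 5 genes the groups did not overlap. Mcm5 had the most negative difference of the S phase genes (-0.39), also without overlap. It was 7.59 and 7.73 in Ly6D+ CLPs and 7.87 and 8.22 in Ly6D- CLPs. Over all genes, 18.4% lay wholly higher and 19.2% wholly lower in Ly6D+ CLPs. Of the 48 genes, 12 lay wholly higher and 10 wholly lower.

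Taken alone, Ly6D+ CLPs differed from CD127- LMPPs in 11 of the 48 genes, 10 lower and 1 higher, against 10.9% of all genes in either direction and 6.94% lower. Ccnd1 was the largest at -1.50 (SE 0.16, limma adjusted p = 0.00030) and Cdkn1a the 1 gene higher, at 1.01 (SE 0.18, limma adjusted p = 0.0054). Ccnb2 passed here, at -0.51 (limma adjusted p = 0.0496), as did Plk1 at -0.68 (limma adjusted p = 0.0150). Of the 48 genes, 2 passed without CD127- LMPP array 1, without Ly6D+ CLP array 1 or without Ly6D+ CLP array 2, and 4 without CD127- LMPP array 2. Of the 11 calls, that of Ccnd1 alone held without each array in turn, and without array 2 of Ly6D+ CLPs Cdkn1a had a limma adjusted p of 0.0684.

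Ly6D- CLPs differed from CD127- LMPPs in 5 genes, all lower, against 7.1% of all genes in either direction and 4.17% lower. These were Rrm2 (-0.83), Ccnd1 (-0.73), Cdc20 (-0.75), Rfc3 (-0.56) and Gins2 (-0.54), with limma adjusted p of 0.0096, 0.0232, 0.0247, 0.0357 and 0.0476. Leaving out 1 array gave 1 to 5 calls, and 1 call was left without CD127- LMPP array 1 or either Ly6D- CLP array. No call held without each array in turn, and Gins2 was lost without any one of them. Against CD127+ LMPPs, Cdc20 was the only gene to pass both in Ly6D+ CLPs (-0.76, limma adjusted p = 0.0334, with 4.03% of all genes passing) and in Ly6D- CLPs (-0.85, limma adjusted p = 0.0339, with 2.06% of all genes passing). Of the 10 fits that left out an array, 4 kept this call in Ly6D+ CLPs, with a limma adjusted p of up to 0.198, and 2 kept it in Ly6D- CLPs, with one of up to 0.139.

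A moderated F test over the 4 groups, which implies no order among them, passed for 6 of the 48 genes, against 9.38% of all genes. They were Ccnd1 (adjusted p = 0.00135), Cdc20 (0.0139), Rrm2 (0.0167), Cdkn1a (0.0213), Rfc3 (0.0328) and Cdk4 (0.0426). Their group means followed 3 patterns, which are a description, since the F test does not say which groups differ. Cdc20, Rfc3 and Cdk4 had lower means in both CLP groups than in both LMPP groups. Neither Rfc3 nor Cdk4 passed in Ly6D+ CLPs alone or in Ly6D- CLPs alone against CD127+ LMPPs. Cdc20 averaged 6.52 ± 0.08 in Ly6D+ CLPs and 6.44 ± 0.33 in Ly6D- CLPs (SD, n = 2 each), against 7.28 ± 0.06 in CD127+ LMPPs and 7.19 ± 0.16 in CD127- LMPPs (SD, n = 3 each), and neighbours in that order within CLPs or within LMPPs did not differ beyond their spread. Rrm2 had its highest mean in CD127- LMPPs, at 7.18 ± 0.15 (SD, n = 3). It averaged 6.56 ± 0.01 in Ly6D+ CLPs and 6.35 ± 0.18 in Ly6D- CLPs (SD, n = 2 each) and 6.56 ± 0.10 in CD127+ LMPPs (SD, n = 3). Its difference between CD127+ and CD127- LMPPs did not pass. Ccnd1 and Cdkn1a ran through the groups in opposite orders at their ends, Ccnd1 lowest and Cdkn1a highest in Ly6D+ CLPs, and Ccnd1 highest and Cdkn1a lowest in CD127- LMPPs. Cdkn1a averaged 8.71 ± 0.23 in Ly6D+ CLPs and 8.31 ± 0.15 in Ly6D- CLPs (SD, n = 2 each), 8.02 ± 0.26 in CD127+ LMPPs and 7.70 ± 0.09 in CD127- LMPPs (SD, n = 3 each), and the arrays of Ly6D- CLPs and CD127+ LMPPs overlapped.

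**Figure D5:**
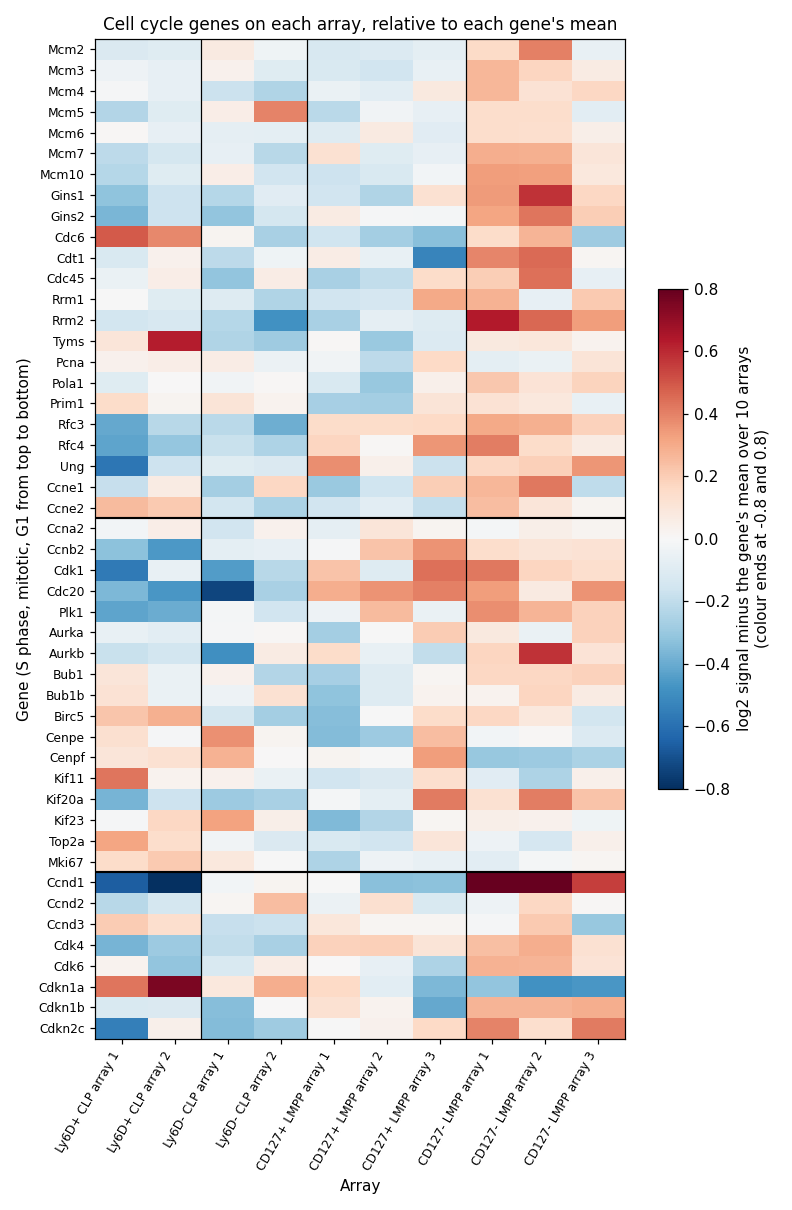
Log2 signal of each of the 48 genes (rows, by role) on each array (columns, by group), as the difference from that gene's mean over the 10 arrays (colour). Ccnd1 and Cdkn1a show opposite colours in Ly6D+ CLPs and CD127- LMPPs, and Ccna2 stays pale on all 10 arrays.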

How the data were processed

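Total RNA of 10 sorted samples was labelled with biotin and hybridised to 1-colour arrays, per the labels. The authors' deposited table gives a log2 signal for 269751 probe sets on each array; the log base was read from its range, while its normalization, genome build and any array batches, not given in the sources used here, stay unknown. Affymetrix Power Tools is named per the submitters' processing notes. Values of probe sets annotated to 1 symbol (233753) were averaged per gene, which gives every probe set equal weight, bright or dim.

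Groups and replicate numbers came from the titles. A mean per group was fitted to all 10 arrays with limma 3.58.1 (R 4.3.3, default eBayes), with Benjamini-Hochberg adjustment of p over all 23152 genes and a threshold of 0.05. A gene "passed" or was "called" under that threshold. The number of arrays limits the precision. Arrays with the same number deviated together by -0.04 to 0.13 (correlation, 13 pairs), so the numbers were not taken to pair samples. Alternatives were another normalization or centring, another summary of probe sets, a filter on dim genes, other variance models, and each array left out. The members and the wider lists were chosen with earlier results of these data known, and all members are named; from each wider list at most the 4 genes with the smallest adjusted p are named per comparison. Promoters are RefSeq's (GRCm38.p6).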

Additional observations from a re-analysis of the deposited data

How the results depend on the processing

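Over the 8 comparisons between groups, 34 calls were made. Of these, 34 held under quantile normalization, 34 with dim genes left out, 34 with a trended, robust variance, 30 with array weights, 29 with median centring, 17 with the compared arrays alone, 10 with the brightest probe set and 9 with the median probe set. Ccnd1 held in all 20 alternatives for CLPs and for Ly6D+ CLPs against CD127- LMPPs.

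In the counts of genes called, CLPs against CD127- LMPPs (12 genes) gave 6 with the median probe set, 21 with dim genes left out, 20 with the trended, robust variance and 1 at a difference of 1 log2 or more, and 6 to 13 without 1 array. CLPs against CD127+ LMPPs (3) gave 1 with centring, 7 with the brightest probe set, 7 with dim genes left out, 7 with the trended variance, 1 with the compared arrays alone and 0 at 1 log2, and 1 without any 1 array. CD127+ against CD127- LMPPs (1) gave 2 with centring, 2 with dim genes left out, 2 with the trended variance, 2 with array weights, and 0 with the median or brightest probe set or at 1 log2. Ly6D+ CLPs against CD127+ LMPPs (1) gave 3 under quantile normalization, 6 with the brightest probe set, 9 with dim genes left out or the trended variance, 5 with array weights and 0 at 1 log2, and 0 to 2 without 1 array. Ly6D+ CLPs against CD127- LMPPs (11) gave 7 with the median and 6 with the brightest probe set, 17 with the trended variance, 4 with the compared arrays alone and 2 at 1 log2, and 2 to 11 without 1 array. Ly6D- CLPs against CD127+ LMPPs (1) gave 2 with the brightest probe set, 2 with dim genes left out, 3 with the trended variance, and 0 with the median probe set, the compared arrays alone, array weights or at 1 log2, and 0 to 1 without 1 array. Ly6D- CLPs against CD127- LMPPs (5) gave 2 with the median probe set, 11 with dim genes left out, 13 with the trended variance, 0 with the compared arrays alone, 3 with array weights and 0 at 1 log2, and 1 to 5 without 1 array. The F test (6) gave 3 with the median probe set, 13 with dim genes left out and 15 with the trended variance, and 2 to 5 without 1 array. Ly6D+ against Ly6D- CLPs gave 0 in every alternative.

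With the replicate number as a block, 17 of the 34 calls held. The block gave 9 genes for CLPs and 5 for Ly6D+ CLPs and 2 for Ly6D- CLPs against CD127- LMPPs, 1 for CLPs and 0 for either single CLP group against CD127+ LMPPs, 1 for CD127+ against CD127- LMPPs, and 1 in the F test. The numbers were not shown to pair samples.

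The sign turned with the brightest probe set for Gins1 in CLPs (0.11) and Ly6D+ CLPs (0.059) and for Kif20a in CLPs (0.44), and with the median probe set for Gins2 in Ly6D- CLPs (0.014), all against CD127- LMPPs. The cause of these changes was not tested. Role medians stayed within the spread between arrays in 416 of 456 alternatives. The counts for the wider lists moved in 184 of 456 alternatives.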
